A study of Caenorhabditis elegans with 6 samples.

Results

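The genes described here encode parts of the contractile filaments of nematode muscle. They are 10 genes, picked by gene symbol from the 27055 probe sets, with 26765 distinct symbols, that carry one in the deposited table of array signals. Of these genes, 4 are typical of the pharynx, the muscular feeding pump (myo-1, myo-2, tnc-2 and tni-4), and 6 are typical of the body wall muscles that bend the animal (myo-3, unc-54, unc-15, unc-22, unc-27 and mup-2). Each is measured by 1 probe set, and no probe set of the 10 is marked for cross-hybridisation.

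Transcript levels came from whole Caenorhabditis elegans, wild-type strain N2, on Affymetrix arrays hybridised with cDNA made from 3.5 ng of RNA. The 3 groups had 2 arrays each: animals in 100 µM Ponceau Red, animals in 100 µM tartrazine and animals in water. Both colorants are synthetic azo dyes. They were given for 48 h in S medium at 20 °C, starting 16 to 18 h after hatching in the first larval stage, and the labels give every group as young adults 3 days after hatching. The samples of a group are labelled as independent trials. Arrays are called here by the numbers in the deposited column names, which run 2, 3 in the Ponceau Red group and 1, 2 in the others.

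Muscle contracts when myosin heads on thick filaments pull on actin in thin filaments, and the troponin complex (C, I and T) sets this pulling under the control of calcium. In C. elegans the pharynx and the body wall use different myosin heavy chains and largely different troponin subunits. The pharynx pumps food all through life, while the body wall muscles are anchored through the epidermis to the cuticle and drive locomotion.

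Values are log2 signals, so that a difference of 1 is a factor of 2, and each gene is compared only with itself across arrays. The array medians were 2.13 and 2.17 in Ponceau Red, 2.22 and 2.13 in tartrazine, and 2.40 and 2.35 in water. The Ponceau Red arrays stood apart from each other: 6904 probe sets differed more than 2-fold between arrays 2 and 3, against 977 between the tartrazine arrays and 559 between the water arrays. Only 234 did so between Ponceau Red array 2 and tartrazine array 2. Yolk genes, which adult hermaphrodites express in the intestine, split the arrays in the same way. The yolk gene vit-6 read 11.01 and 1.63 on Ponceau Red arrays 2 and 3 and 10.59 and 10.93 in tartrazine, against 1.89 and 2.11 in water. Its low readings, on Ponceau Red array 3 and both water arrays, go against the adult stage on the labels. Results for Ponceau Red are therefore given for each array, and with each array left out where that changes them. Both tartrazine arrays were yolk-high and both water arrays yolk-low. In tartrazine against water, the colorant and this split therefore cannot be told apart. In whole animals, fewer cells of a type and less RNA per cell cannot be told apart.

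Both pharyngeal myosin heavy chain genes fell with Ponceau Red, myo-1 by a factor of 3.11 and myo-2 by a factor of 2.01, and of the pair myo-1 alone fell with tartrazine, by a factor of 2.48. The pharyngeal troponin C gene tnc-2 was also lower on every colorant array but did not pass the test, and the pharyngeal troponin I gene tni-4 did not follow the others. None of the 6 body wall genes passed in any comparison in this fit of all arrays. For tartrazine, mup-2, unc-27 and myo-3 did pass under some other settings, given below with mup-2. In all, 2 of the 10 genes passed for Ponceau Red against water, beside 2.59% of all probe sets (2.48% fell), and 1 of the 10 for tartrazine against water, beside 4% (3.53% fell). Calls rest on limma with Benjamini-Hochberg adjustment over all 27055 probe sets, at an adjusted p under 0.05. Without either water array or either tartrazine array no probe set passed in either comparison, with 2147 to 3227 at an unadjusted limma p under 0.05 for Ponceau Red and 3281 to 4424 for tartrazine. The adjusted p of myo-1 then reached 0.225 with Ponceau Red and 0.26 with tartrazine, and that of myo-2 reached 0.298 with Ponceau Red. With Ponceau Red neither gene passed in any alternative setting that kept both arrays of the groups compared. Their direction was the same in all 13 alternative settings. Some of the 13 repeat a fit: leaving out either tartrazine array gave the same fit as only the 4 arrays compared.

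myo-1, a myosin heavy chain of pharyngeal muscle, read 4.08 and 3.66 on Ponceau Red arrays 2 and 3 and 4.15 and 4.24 in tartrazine, against 5.43 and 5.59 in water. All 4 colorant arrays lay below both water arrays, and the gap was larger than the spread within any group. The difference was -1.64 ± 0.21 for Ponceau Red (SE; 95% interval -2.17 to -1.10; limma adjusted p = 0.0323). With tartrazine it was -1.31 ± 0.21 (interval -1.85 to -0.78; adjusted p = 0.0453). Of all probe sets, 4.43% had a lower difference than myo-1 for Ponceau Red and 10.2% for tartrazine. The Ponceau Red difference was -1.43 on array 2 alone and -1.85 on array 3 alone, so that the yolk-high and the yolk-low array gave the same direction.

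myo-2, the second pharyngeal myosin heavy chain, read 2.52 and 2.56 in Ponceau Red and 3.24 and 3.25 in tartrazine, against 3.50 and 3.59 in water. The 3 groups did not overlap and stood in the order Ponceau Red, tartrazine, water, with replicates closer to each other than any of the groups. These are weak signals, near the array medians. The difference from water was -1.005 ± 0.15 for Ponceau Red (interval -1.39 to -0.62; limma adjusted p = 0.0473) and -0.30 ± 0.15 for tartrazine (interval -0.68 to 0.08; adjusted p = 0.254). Between the Ponceau Red arrays myo-2 differed by only -0.04, a smaller gap than for all but 7.02% of probe sets.

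tnc-2, the calcium-binding troponin C of the pharynx, read 3.34 and 2.94 in Ponceau Red and 3.39 and 3.80 in tartrazine, against 4.43 and 4.73 in water. Its colorant arrays all lay below its water arrays, and its Ponceau Red arrays lay just below its tartrazine arrays. The difference was -1.44 ± 0.25 for Ponceau Red (interval -2.10 to -0.79; limma adjusted p = 0.0737) and -0.99 ± 0.25 for tartrazine (interval -1.64 to -0.33; adjusted p = 0.106). Neither passed. The Ponceau Red difference was -1.64 without array 2 and -1.24 without array 3.

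tni-4, the troponin I of the pharynx, which holds back contraction until calcium arrives, read 5.60 and 2.78 on Ponceau Red arrays 2 and 3 and 5.91 and 5.46 in tartrazine, against 4.51 and 5.22 in water. It was the member that varied most, with a range of 3.12 over the arrays, wider than for 92.3% of probe sets. Ponceau Red array 2 and both tartrazine arrays were above water, and Ponceau Red array 3 alone was below it, where 12% of all probe sets had the first 3 above water and array 3 not. The gap of 2.82 between the Ponceau Red arrays exceeded that of 95.4% of probe sets. The fitted difference of -0.67 ± 0.96 with Ponceau Red had an interval of -3.18 to 1.83, and that of 0.82 ± 0.96 with tartrazine one of -1.68 to 3.32. Without Ponceau Red array 3 the Ponceau Red difference was 0.74, and without array 2 it was -2.08.

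**Figure D1:**
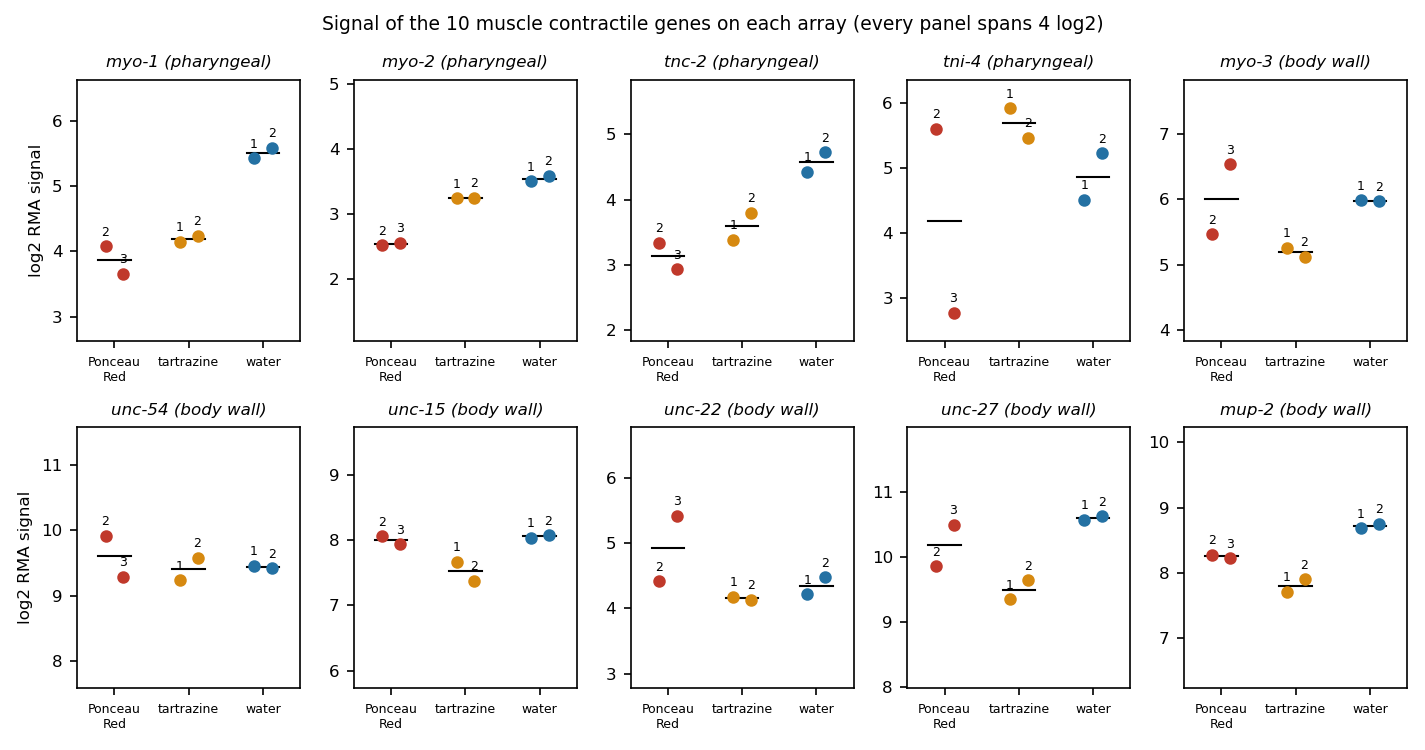
Log2 RMA signal (y axis) of each of the 10 genes in Ponceau Red, tartrazine and water (x axis). Points are arrays, labelled with their number, and bars are group means; every panel spans the same log2 range. myo-1, myo-2 and tnc-2 are lower on all 4 colorant arrays than on both water arrays, tni-4 is low only on Ponceau Red array 3, and unc-54 stays near one level.

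No body wall thick filament gene passed the test, and with tartrazine all 4 differences were negative, between -0.79 and -0.03. unc-54, which encodes the major myosin heavy chain of body wall muscle, read 9.92 and 9.29 in Ponceau Red and 9.24 and 9.58 in tartrazine, against 9.46 and 9.42 in water. The groups overlapped fully, and its range of 0.68 was the narrowest of the 10 genes, with 39.2% of probe sets narrower still. Its differences were 0.16 ± 0.27 for Ponceau Red (interval -0.55 to 0.88; limma adjusted p = 0.815) and -0.03 ± 0.27 for tartrazine (interval -0.74 to 0.68; adjusted p = 0.956), and these intervals still allow shifts of more than 0.5 either way.

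myo-3, the heavy chain found at the centre of body wall thick filaments, read 5.47 and 6.54 on Ponceau Red arrays 2 and 3 and 5.26 and 5.12 in tartrazine, against 5.99 and 5.97 in water. Ponceau Red array 2 lay with tartrazine below water and array 3 lay above water, and 13.2% of all probe sets likewise had array 2 and tartrazine, but not array 3, below water. The difference was 0.02 ± 0.38 for Ponceau Red and -0.79 ± 0.38 for tartrazine (limma adjusted p = 0.983 and 0.245). The Ponceau Red value near 0 is an average of -0.51 on array 2 and 0.56 on array 3.

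unc-15, paramyosin, which forms the core of thick filaments and is also made in the pharynx, read 8.06 and 7.94 in Ponceau Red and 7.67 and 7.38 in tartrazine, against 8.04 and 8.08 in water. Only the tartrazine arrays were set apart, below all others. The difference was -0.53 ± 0.18 for tartrazine (limma adjusted p = 0.145) and -0.06 ± 0.18 for Ponceau Red (limma adjusted p = 0.908).

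unc-22, twitchin, a giant kinase of the titin family that regulates contraction, read 4.42 and 5.42 in Ponceau Red and 4.18 and 4.13 in tartrazine, against 4.22 and 4.48 in water. Ponceau Red array 3 was the high one, and the tartrazine arrays were just below water. The difference was 0.57 ± 0.36 for Ponceau Red (limma adjusted p = 0.553) and -0.19 ± 0.36 for tartrazine (adjusted p = 0.772). Without Ponceau Red array 2 the Ponceau Red difference was 1.07, and without array 3 it was 0.07.

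Neither body wall troponin gene passed the test. unc-27, the body wall troponin I, read 9.86 and 10.49 in Ponceau Red and 9.35 and 9.64 in tartrazine, against 10.57 and 10.62 in water. All colorant arrays were below water, with Ponceau Red array 3 the nearest, at -0.10 from the water mean. The difference was -1.10 ± 0.27 for tartrazine (interval -1.79 to -0.40; limma adjusted p = 0.0996) and -0.42 ± 0.27 for Ponceau Red (adjusted p = 0.554).

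mup-2, the body wall troponin T that ties the complex to tropomyosin, read 8.28 and 8.22 in Ponceau Red and 7.71 and 7.90 in tartrazine, against 8.68 and 8.75 in water. The groups did not overlap and stood in the order tartrazine, Ponceau Red, water, the opposite of myo-2 for the colorants. The difference was -0.91 ± 0.16 for tartrazine (interval -1.32 to -0.50; limma adjusted p = 0.0559) and -0.47 ± 0.16 for Ponceau Red (interval -0.88 to -0.06; adjusted p = 0.284). mup-2 was the body wall gene nearest to passing with tartrazine. With only the 4 tartrazine and water arrays, tartrazine against water gave limma adjusted p values of 0.0079 for mup-2, 0.0048 for unc-27 and 0.0124 for myo-3. In that fit 35% of all probe sets passed, against 4% in the fit of all arrays. In the second deposited table the mup-2 difference for tartrazine was -1.80 (limma adjusted p = 0.0125; 0.0404 with the trial block) and, with arrays centred, -1.35 (adjusted p = 0.0317). Before centring, the median of all probe sets there was -0.23. Of all probe sets 9.53% passed there, 3.84% with the block and 3.35% with arrays centred. unc-27 passed with a prior variance trended on signal (adjusted p = 0.0485).

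**Figure D2:**
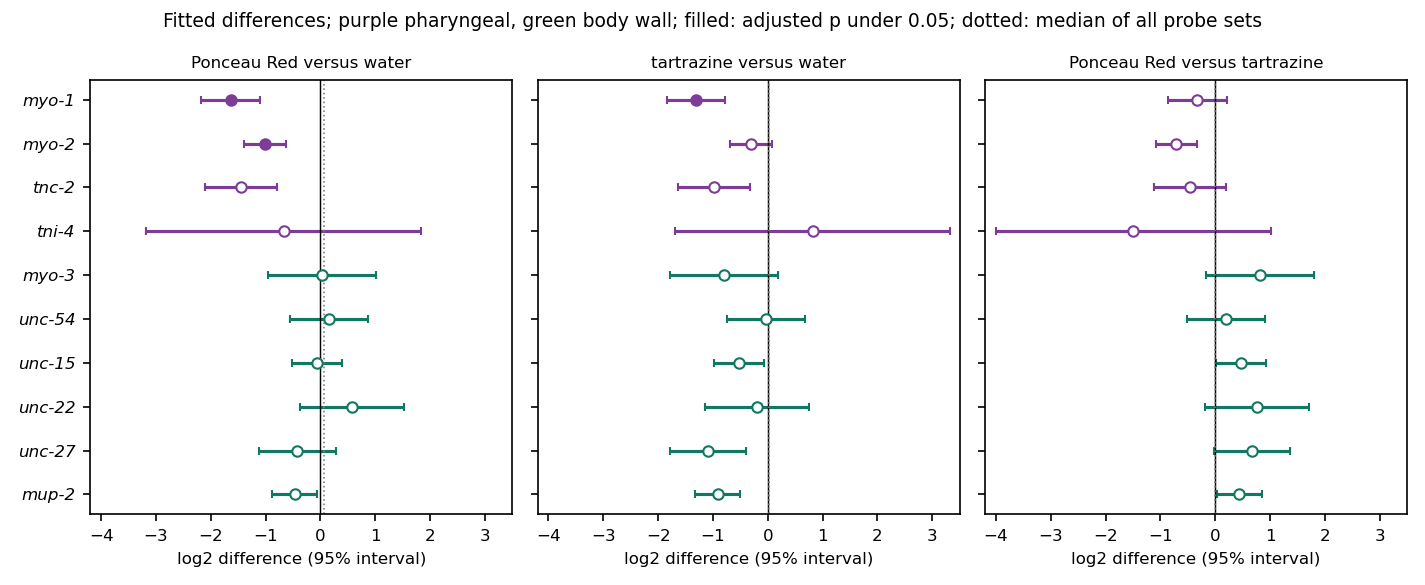
Fitted log2 differences (x axis) of the 10 genes (rows) with 95% intervals, in 1 panel per comparison. Purple marks pharyngeal and green body wall genes, filled points have a limma adjusted p under 0.05 and dotted lines give the median of all probe sets. myo-1 is filled against water in both colorants and myo-2 in Ponceau Red; in the right panel every pharyngeal point is left of 0 and every body wall point right of it.

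Counted over arrays, 5 genes (myo-1, myo-2, tnc-2, unc-27 and mup-2) were below both water arrays on all 4 colorant arrays, beside 18.1% of all probe sets. None was above on all 4, beside 17.7%. For Ponceau Red alone, 3 of the 4 pharyngeal and 2 of the 6 body wall genes lay below water without overlap, beside 22.6% of probe sets, and none lay above it, beside 24.9%. For tartrazine, 3 of the 4 pharyngeal and 5 of the 6 body wall genes did, beside 34%. unc-54 was the body wall gene that did not.

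The medians of pharynx and body wall lay apart with Ponceau Red and side by side with tartrazine. With Ponceau Red the median log2 difference from water was -1.22 over the pharyngeal genes and -0.02 over the body wall genes, against a median of 0.06 over all probe sets. With tartrazine the medians were -0.64 and -0.66, against 0.02 over all probe sets. Single genes did not agree so closely. The pharyngeal ones ran from -1.31 for myo-1 to 0.82 for tni-4, and the body wall ones from -1.10 to -0.03. Pharyngeal minus body wall medians, on differences from the water mean, were -0.92 and -1.64 on Ponceau Red arrays 2 and 3 and -0.19 and 0.21 on tartrazine arrays 1 and 2, against -0.09 and 0.09 in water. Both Ponceau Red arrays, the yolk-high and the yolk-low one, were thus below all others on this measure. The part of the yolk split in it was not tested. These medians rest on 4 and 6 chosen genes and carry no test.

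The colorants were then set against each other at the same dose and time. No member passed, beside 0% of all probe sets, although 1219 probe sets (4.51%) had an unadjusted limma p under 0.05. The signs divided by muscle type: Ponceau Red minus tartrazine was negative for all 4 pharyngeal genes, between -1.49 and -0.32, and positive for all 6 body wall genes, between 0.20 and 0.82. In the second deposited table myo-1 turned positive, at 0.19, with and without the trial block. The median of all probe sets in that table was higher, at 0.24. Without Ponceau Red array 2 unc-54 turned negative, at -0.12. In the fit of all arrays the pharyngeal and body wall medians were -0.58 and 0.58, and that of all probe sets was near 0, at -0.0039. The body wall sign was not particular to it: medians were 0.58 over other muscle genes, 0.80 over neuronal, 0.39 over epidermal and 0.33 over intestinal genes. They were negative over sperm (-0.73), germ line (-2.30), yolk (-3.57) and pharyngeal gland and cuticle genes (-0.08). Pharyngeal genes outside the 10 took both signs, with pha-4 at 2.16, tbx-2 at 0.93 and tnt-4 at -0.09. Without overlap, Ponceau Red lay below tartrazine for 3 pharyngeal genes (16.8% of all probe sets did), the exception being tni-4. It lay above tartrazine for 5 body wall genes (18.7% did), the exception being unc-54.

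Among these differences that of myo-2 was -0.71 ± 0.15 (interval -1.09 to -0.32), with an unadjusted p of 0.0054 and a limma adjusted p of 0.681. For unc-15 the difference was 0.48 ± 0.18 (interval 0.02 to 0.93) and for mup-2 it was 0.44 ± 0.16 (interval 0.03 to 0.86). myo-1 differed by -0.32 (interval -0.86 to 0.21) and tnc-2 by -0.46 (interval -1.12 to 0.20), so that both intervals include 0. The median difference between muscle types was -1.16, and -0.60 without Ponceau Red array 3.

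The troponin genes outside the 10 were read beside their partners. Of these, tnt-4 and tni-1 are named by the rule for genes of widest range, and tni-3 and pat-10 were chosen after their values were seen. tnt-4, the troponin T of the pharynx, read 3.23 and 3.21 in Ponceau Red and 3.43 and 3.18 in tartrazine, against 4.58 and 5.28 in water. Its arrays were low in all 4 colorant samples, like those of tnc-2, with differences of -1.71 ± 0.28 for Ponceau Red (limma adjusted p = 0.0634) and -1.62 ± 0.28 for tartrazine (adjusted p = 0.0559). Neither passed.

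tni-3, another troponin I gene, read 6.73 and 5.35 in Ponceau Red and 6.92 and 6.81 in tartrazine, against 5.63 and 5.71 in water. It was high on Ponceau Red array 2 and in tartrazine and lowest on Ponceau Red array 3, the arrangement of tni-4. tni-1, a further troponin I gene, was lower on all 4 colorant arrays, at 5.68, 6.65, 5.61 and 6.28 (Ponceau Red 2 and 3, tartrazine 1 and 2), against 7.39 and 7.29 in water. The 4 troponin I genes therefore took both directions: unc-27 and tni-1 were below water on every colorant array, and tni-3 and tni-4 were above it on 3 of them. pat-10, the troponin C of body wall muscle, read 8.49 and 9.32 in Ponceau Red and 8.51 and 8.50 in tartrazine, against 9.39 and 9.41 in water, with Ponceau Red array 3 close to water.

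**Figure D3:**
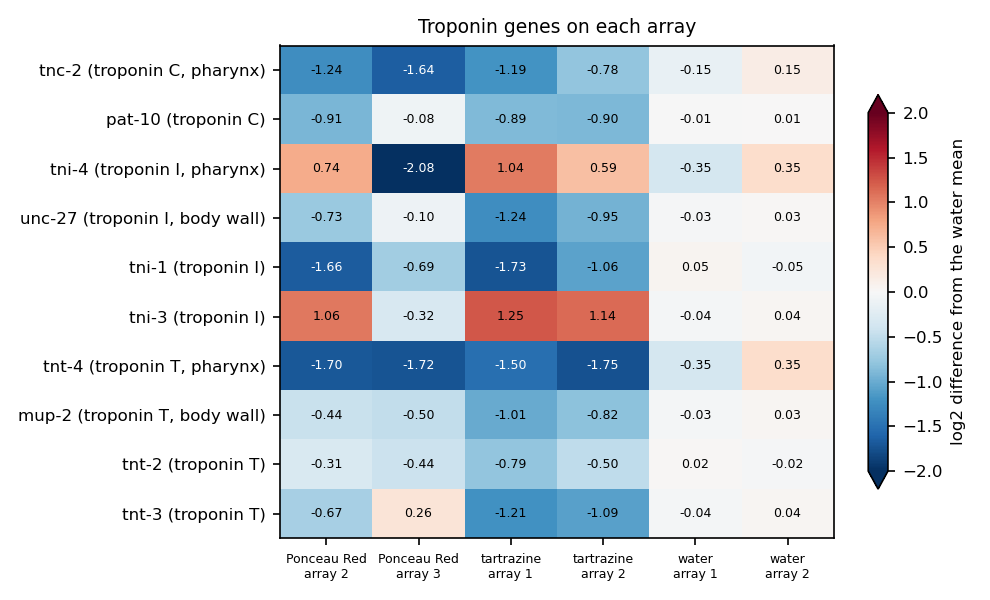
Log2 difference from the water mean (colour and printed value) for 10 troponin genes (rows) on each of the 6 arrays (columns). tnc-2 and tnt-4 are low on all 4 colorant arrays, while tni-3 and tni-4 are high on Ponceau Red array 2 and both tartrazine arrays and low on Ponceau Red array 3.

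A wider set of 73 muscle genes in 5 lists was examined, of which 70 were measured on 71 probe sets (act-1, act-3 and tmd-1 had no match by symbol). None passed in limma in any of the 3 comparisons. An unadjusted p under 0.05 was reached by 10 for Ponceau Red against water (14.5% of all probe sets did), by 29 for tartrazine against water (28.4%) and by 12 between the colorants (4.51%). The lowest adjusted p was 0.0631 for Ponceau Red and 0.0559 for tartrazine. Median differences from water were -0.26 with Ponceau Red and -0.76 with tartrazine, and 45 and 60 of the 71 were negative. Tartrazine lay below water without overlap for 53 of the 71 (34% of all probe sets did), and Ponceau Red for 18 of the 71 (22.6%), a share near that of all probe sets. Left out 1 at a time, the Ponceau Red arrays changed these counts: for Ponceau Red against water, 33 passed without array 3 (26% of all probe sets did) and 10 without array 2 (11.2%). For tartrazine against water, 41 passed without either Ponceau Red array in turn (35%). Of the 10 members, 5 passed for Ponceau Red without array 2 (unc-22 rose, and myo-1, myo-2, tnc-2 and tni-4 fell) and 3 without array 3. Also, 5 passed for tartrazine without either Ponceau Red array in turn, and 4 passed between the colorants without Ponceau Red array 2 (myo-3, unc-22 and unc-27 rose and tni-4 fell; 27.8% of all probe sets passed).

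Many of these genes divided the Ponceau Red arrays in the way of myo-3. Of the 71, 58 were higher on Ponceau Red array 3 than on array 2, beside 58.4% of all probe sets. Of the 71, 32 lay below water on Ponceau Red array 2 and both tartrazine arrays but not on Ponceau Red array 3, beside 13.2% of all probe sets. Of the 10 members only myo-3 was of this kind.

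The split was plain in the genes that anchor the filaments, where the median difference from water was -0.98 on Ponceau Red array 2, 0.16 on array 3, -1.33 on tartrazine array 1 and -1.04 on tartrazine array 2. pat-4, the integrin-linked kinase of muscle attachments, read 5.73 and 7.34 in Ponceau Red and 5.27 and 5.49 in tartrazine, against 7.17 and 7.24 in water. unc-95 and unc-96, proteins of the same attachment structures, split likewise: unc-96 read 5.31 and 6.92 in Ponceau Red and 5.22 and 5.18 in tartrazine, against 6.83 and 7.17 in water. Array 3 was at the level of water, and array 2 at that of tartrazine.

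In the other thin filament genes the medians were -0.79 and 0.00 on Ponceau Red arrays 2 and 3 and -1.02 and -0.96 in tartrazine. unc-78, which helps cofilin take actin filaments apart, read 5.75 and 7.50 in Ponceau Red and 5.35 and 5.42 in tartrazine, against 6.83 and 6.90 in water. In the thick filament and titin-like genes the medians were -0.29 and 0.12 in Ponceau Red and -0.62 and -0.54 in tartrazine. mlc-1, a muscle myosin light chain, read 6.07 and 7.56 in Ponceau Red and 5.48 and 5.56 in tartrazine, against 7.87 and 7.72 in water. Its tartrazine difference of -2.28 ± 0.51 did not pass (limma adjusted p = 0.0865).

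Channels, receptors and calcium-handling genes had medians of -0.29 and 0.36 on Ponceau Red arrays 2 and 3 and of -0.51 and -0.43 in tartrazine. unc-49, a muscle GABA receptor, read 3.85 and 6.34 in Ponceau Red and 3.76 and 3.34 in tartrazine, against 5.52 and 5.19 in water. slo-1, a calcium-activated potassium channel, had the same order, at 2.78 and 5.16 in Ponceau Red and 2.30 and 2.58 in tartrazine, against 4.21 and 4.65 in water. Both were above water on Ponceau Red array 3.

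The 9 regulators of muscle and pharynx fate had medians of -0.51 and 0.13 on Ponceau Red arrays 2 and 3 and of -0.49 and -0.37 in tartrazine. Of the 9, 3 were below water on Ponceau Red array 2 and both tartrazine arrays but not on Ponceau Red array 3, and 7 were higher on array 3 than on array 2. The 3 with the widest range are given here. pha-4, the FoxA factor needed to form the pharynx and also present in the gut, read 3.84 and 7.64 on the Ponceau Red arrays and 3.72 and 3.44 in tartrazine, against 6.18 and 6.56 in water. Ponceau Red array 3, on which myo-1 and tnc-2 were lowest, was thus the array with the highest pha-4. tbx-2, a T-box factor of pharyngeal muscle, read 5.22 and 6.81 in Ponceau Red and 4.80 and 5.36 in tartrazine, against 6.88 and 7.09 in water. unc-120, a body wall factor related to serum response factor, read 3.04 and 5.67 in Ponceau Red and 3.07 and 2.94 in tartrazine, against 5.48 and 5.61 in water. None of the 9 regulators passed in any of the 3 comparisons. ceh-22, a homeobox gene of pharyngeal muscle named here after its values were seen, read below the median of every array, at 2.01 or less, so that its level could not be followed.

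**Figure D4:**
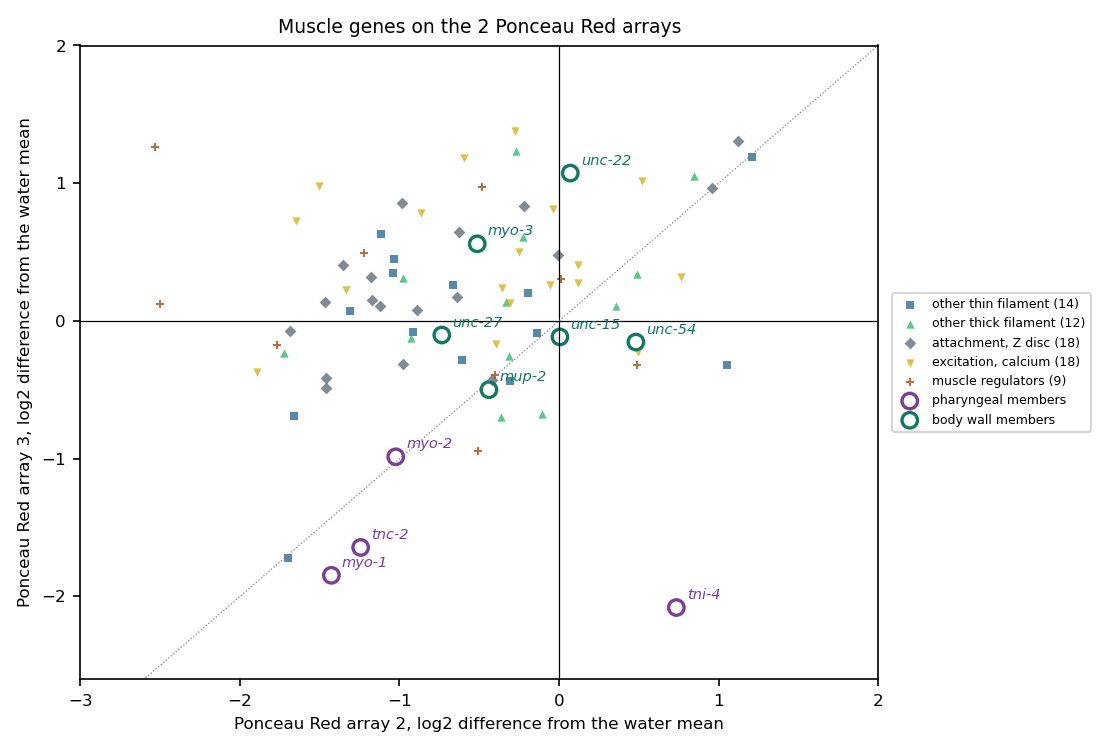
Log2 difference from the water mean on Ponceau Red array 2 (x axis) and array 3 (y axis) for the 10 genes (open circles) and 71 other muscle probe sets (small symbols by list); the dotted line marks equal values. myo-1, myo-2 and tnc-2 lie low on both axes near the line, tni-4 lies at 0.74 and -2.08, and most other muscle genes lie above the line.

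Among markers of other tissues, yolk and germ line genes divided the arrays most. The medians of intestinal, non-muscle myosin and pharyngeal gland and cuticle genes were alike on the Ponceau Red arrays, but single genes were not. Of the intestinal list, elt-2 read 5.45 and 8.36 on arrays 2 and 3, and pept-1 4.49 and 2.22. Of the non-muscle myosin list, hum-6 read 4.26 and 5.79, and nmy-2 6.17 and 4.99. These genes were named after their values were seen. The part of the markers in the muscle values was not tested. Over 6 yolk genes the median difference from water was 8.71 and 0.03 on Ponceau Red arrays 2 and 3 and 7.57 and 8.25 in tartrazine. All 6 were above both water arrays on Ponceau Red array 2 and in tartrazine, and 3 were on Ponceau Red array 3. Over 10 germ line genes it was 4.25 and -0.36 in Ponceau Red and 4.34 and 4.29 in tartrazine, with all 10 above water on Ponceau Red array 2 and in tartrazine and 2 on Ponceau Red array 3. The eggshell gene cpg-2 of that list read 9.58 and 2.43 in Ponceau Red and 9.46 and 9.32 in tartrazine, against 3.51 and 2.81 in water. Among the colorant arrays, the one with low yolk and germ line signals, Ponceau Red array 3, had the lowest tni-4 and the highest myo-3 and unc-22. The water arrays, also low in yolk, read 4.51 and 5.22 for tni-4, 5.99 and 5.97 for myo-3, and 4.22 and 4.48 for unc-22. They differ from Ponceau Red array 3 in treatment as well, and the part of the yolk split in these values was not tested. myo-1, myo-2 and tnc-2 were low on every colorant array, Ponceau Red array 3 included.

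Over 10 sperm genes the medians were 0.59 and -0.09 in Ponceau Red and 1.08 and 1.45 in tartrazine. Over 10 neuronal genes they were -0.22 and 0.98 in Ponceau Red and -0.26 and -0.22 in tartrazine, with 8 of the 10 above water on Ponceau Red array 3. Intestinal genes gave -0.64 and -0.52 in Ponceau Red and -1.05 and -0.62 in tartrazine. Epidermal genes, whose cells anchor the body wall muscles, gave -1.07 and -0.56 in Ponceau Red and -1.11 and -1.28 in tartrazine. Non-muscle myosins and their regulators gave 0.30 and 0.32 in Ponceau Red and 0.50 and 0.23 in tartrazine.

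Of the pharynx outside its muscle, 9 gland and cuticle genes were measured, with medians of -0.30 and -0.36 in Ponceau Red and -0.29 and -0.29 in tartrazine. abu-6, of the pharyngeal cuticle, read 3.05 and 2.83 in Ponceau Red and 2.96 and 3.09 in tartrazine, against 5.41 and 4.55 in water. It was low on all 4 colorant arrays, with -2.04 ± 0.32 for Ponceau Red (limma adjusted p = 0.0575) and -1.96 ± 0.32 for tartrazine (adjusted p = 0.0501). phat-6, the other gene of this list named by mean signal, read 4.11 and 1.34 in Ponceau Red and 5.20 and 4.15 in tartrazine, against 3.51 and 3.43 in water. It was above water in tartrazine and on Ponceau Red array 2 and below it on array 3. Of the 9 genes, 2 were below water on all 4 colorant arrays, a share near the 18.1% of all probe sets.

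**Figure D5:**
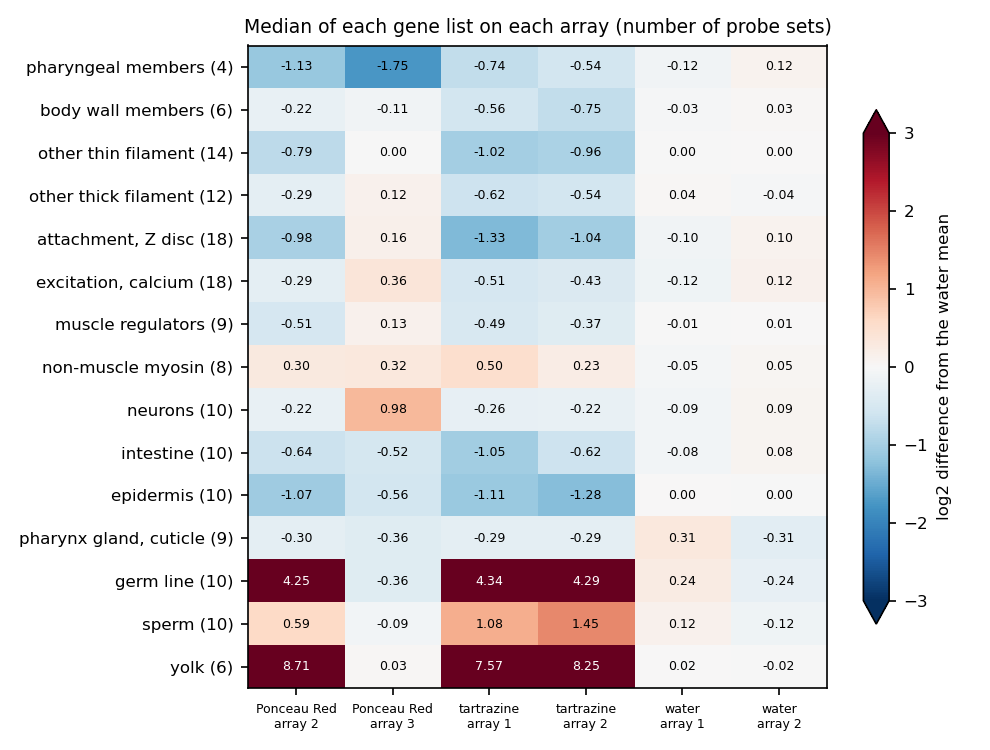
Median log2 difference from the water mean (colour and printed value) of each gene list (rows, with the number of probe sets) on each array (columns). The pharyngeal genes are lowest on Ponceau Red array 3, at -1.75, the attachment genes are low on Ponceau Red array 2 and in tartrazine but not on array 3, and yolk and germ line genes run beyond the colour scale on those same 3 arrays.

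The patterns of the members were compared with the 12325 probe sets of 1 symbol whose signal ranged over at least 1 log2. For the mean of the pharyngeal genes the most similar were K10C9.9, F25D1.5, mtl-1, abf-5 and R10E8.6, with Pearson correlations of 0.973 to 0.987 over the 6 arrays. mtl-1, a metallothionein, read 6.50 and 5.03 in Ponceau Red and 7.57 and 8.06 in tartrazine, against 8.68 and 9.04 in water. For the mean of the body wall genes they were toe-4, lin-66, R166.6, pcca-1 and isp-1, at 0.987 to 0.994. Correlations over 0.9 were reached by 85 probe sets for the pharyngeal mean and by 1014 for the body wall mean. The 6 points share libraries and groups, so the values only describe likeness.

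The authors' deposited table for Ponceau Red gives a ratio of treated over control below 1 for each pharyngeal gene, at 0.422 for myo-1, 0.647 for myo-2, 0.452 for tnc-2 and 0.548 for tni-4. Its F scores were 13.9 for myo-1, 21.7 for myo-2 and 16.8 for tnc-2, but only 0.618 for tni-4. In the authors' deposited table the body wall ratios were 1.29 for myo-3, 1.12 for unc-54, 1.11 for unc-15, 1.34 for unc-22, 0.881 for unc-27 and 0.855 for mup-2. The authors' deposited table for tartrazine, which lists 1746 probe sets with an unadjusted p-value under 0.05, holds 1 of the 10 genes, myo-2, with a ratio of 0.88 and a p of 0.0245. myo-1 is not in that list, although it passed in limma. The sums of squares in both deposited tables fit groups of 3 and 2 arrays, and the identity of the further array is not stated there.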

How the data were processed

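The authors deposited log2 signals per probe set over 6 arrays, made with RMA, per the submitters' processing notes. RMA options, a genome build and a gene model release are not given in the sources used here. Another table of log2 signals that the authors deposited, with columns by labelled trial, served as an alternative. The authors also deposited a table per colorant with a ratio of treated over control, sums of squares and F as scores, and an unadjusted p-value; their Ponceau Red p-values were not used.

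Samples were grouped by their titles. The 29317 probe sets include 2262 without a gene symbol, which were left out. The remaining 27055 were fitted on all 6 arrays with limma (version 3.58.1; lmFit and eBayes; R 4.3.3), without a filter on low signal, with 3 residual and 1.78 prior degrees of freedom and two-sided tests. The adjusted p is Benjamini-Hochberg over all of them. The steps were tested on simulated data. Intervals are at 95%, and the 6 arrays limit the precision: an interval for Ponceau Red against water reached a median of 0.64 to each side. Figures were drawn with matplotlib 3.10.9 under Python 3.11.15.

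The members and all gene lists were chosen with earlier results of these data known. By rule the text names all members, up to 6 other muscle genes per comparison and direction that pass, up to 3 genes per muscle list with the widest range, up to 2 per other tissue list with the highest mean signal, and 5 per pattern; exceptions are marked. Symbols were as deposited, and 9 of the 10 members also matched a RefSeq accession of assembly WBcel235. Differences between labelled trials correlated at 0.04 for water with Ponceau Red, 0.17 for water with tartrazine and -0.04 for Ponceau Red with tartrazine. Those with Ponceau Red hold the wide split between its arrays, so that pairing by labelled trial cannot be judged from them. Alternatives were leaving out each array, centring, the second table, a trial block, fewer arrays, a trended prior and a filter on low signal.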

Additional observations from a re-analysis of the deposited data

How the results depend on the processing

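Of the values recomputed for single genes, 323 kept direction and side of the threshold, 31 lost the call, 24 gained it and 12 changed sign. These counts hold repeats: leaving out an array of the group not compared gives the same fit as only the 4 arrays compared. For Ponceau Red against water, 2 members passed; 0 passed after centring each array (1.93% of probe sets did), in the second deposited table (2.27%) with or without centring or the replicate block (0.835%), with only the 4 arrays compared, with a trended prior or with the filter on low signal. Leaving out 1 array gave 0 to 5 (0 without either water or either tartrazine array, 3 without Ponceau Red array 3, 5 without array 2), and 0 to 33 other muscle genes. The adjusted p of myo-1 was between 0.0629 and 0.225, and that of myo-2 between 0.0616 and 0.298, in the 11 of 13 alternatives that lost them. For tartrazine against water, 1 member passed; 0 passed after centring or with the filter, 2 in the second table (9.53%), 1 with its replicate block and 5 with only the 4 arrays compared, and 0 to 5 with 1 array left out (5 without either Ponceau Red array). myo-1 kept its call in 4 of 13, and mup-2 gained one in 6. Both counts take 1 fit more than once, since leaving out either Ponceau Red array repeats that of only the 4 arrays compared. Other muscle genes passed for tartrazine in numbers of 41 with the 4 arrays (35% of probe sets), 11 in the second table (9.53%) and 2 with its replicate block (3.84%). Between the colorants 0 members and 0 other muscle genes passed, and 0 to 4 and 0 to 40 with 1 array left out, the highest without Ponceau Red array 2.

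The pharyngeal minus body wall median kept its sign for Ponceau Red against water, at -1.64 to -0.92 with 1 array left out. For tartrazine against water it was 0.0195, and -0.19 without tartrazine array 2 or -0.0749 without water array 1, with a highest value of 0.21. Between the colorants it was -1.57 in the second table, with or without the replicate block or centring, and -1.38 to -0.60 with 1 array left out. Signs also turned for Ponceau Red against water in tni-4 (0.74, and -2.08 without array 2) and myo-3 (-0.51, and 0.56 without array 2) without Ponceau Red array 3, in unc-54 (-0.15, and 0.48 without array 3) without array 2, and in unc-15 (0.17 centred, 0.19 in the second table centred, 0.0058 without array 3). For tartrazine they turned in unc-54 (0.17 centred, 0.14 without tartrazine array 1, -0.20 without array 2) and unc-22 (0.013 centred). Between the colorants they turned in myo-1 and unc-54 (-0.12 without Ponceau Red array 2, 0.51 without array 3). myo-1 was 0.19 in the second table, with or without the replicate block, where the median of all probe sets was 0.24. The causes were not tested. Centring moved the median of all probe sets to 0.28 for Ponceau Red and 0.22 for tartrazine. Where 1 array is left in a group, it is assumed to vary like the other groups. The block was run in the second table because its columns carry the labelled trials. Leave-one-out is blind to what both arrays of a group share, and with 2 arrays a group the intervals are wide.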
